A study of Mus musculus with 6 samples.

Results

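The mitochondrial respiratory chain and ATP synthase genes were followed across 6 arrays of mouse CD4 T cells that differed in the gene Ezh2 and in their culture. The genes were taken by symbol, as those starting with Nduf, Uqcr, Cox4, Cox5, Cox6, Cox7, Cox8 or Atp5, together with Sdha, Sdhb, Sdhc and Sdhd. They numbered 90 of the 18193 genes that had a probe set with exactly 1 gene symbol. For each gene the probe set with the highest mean log2 intensity over the 6 arrays was read. Of the 90 genes, 86 were bright enough to be tested, out of 11572 tested genes in all. The 90 genes comprised 36 complex I subunits (34 tested), 8 complex I assembly factors named Ndufaf (8 tested), 4 subunits of complex II (4 tested), 8 of complex III (8 tested), 17 of complex IV (15 tested) and 17 of ATP synthase (17 tested).

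The respiratory chain lies in the inner mitochondrial membrane. Complex I takes electrons from NADH and complex II takes them from succinate, and both hand them through ubiquinone to complex III, which passes them through cytochrome c to complex IV and so to oxygen. Complexes I, III and IV pump protons as the electrons pass, and ATP synthase uses the returning protons to make ATP. Most subunits are encoded in the nucleus, and a small core of complexes I, III, IV and of ATP synthase is encoded in mitochondrial DNA. Activated T cells enlarge their mitochondria while they also run glycolysis at a high rate.

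The cells were naive (CD44low CD62Lhigh) CD4 T cells from the spleens of C57BL/6 mice, wild type or Ezh2 KO. Ezh2 is the histone methyltransferase of Polycomb repressive complex 2 and acts on lysine 27 of histone H3. Every culture lasted 5 days. All cells spent the first 2 days on plate-bound antibody to TCRβ at 10 µg/ml with antibody to CD28 at 1 µg/ml and IL-2 at 15 ng/ml, and the last 3 days with the cytokines but without those antibodies. The Th1 culture had IL-12 at 1 ng/ml and antibody to IL-4, the Th2 culture had IL-4 at 10 ng/ml and antibody to IFN-γ, and the unpolarized culture had both blocking antibodies. Each genotype and culture was measured on 1 array, so a genotype comparison rests on 3 pairs of arrays. The deleted part of Ezh2 is not named in the labels, and neither are separate mice behind the arrays, so the p-values reflect only the spread among these 6 arrays, which may be technical.

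The Ezh2 probe set read 6553 to 7677 on the wild type arrays and 4876 to 4971 on the Ezh2 KO arrays, and passed the genotype test (limma, adjusted p under the 0.05 threshold used throughout). Of the 6 CD4 T cell markers with a probe set, all had signal and 0 passed the genotype test, but they did not move together. Cd4 was lower without overlap, at 477 to 548 in wild type against 300 to 433 in Ezh2 KO (limma adjusted p = 0.0914). Cd5 was also lower without overlap (limma adjusted p = 0.0532), Cd3e, Cd3g and Cd28 were higher without overlap, and Cd3d overlapped. The summed intensity of the 6 was 44562 to 48779 in wild type against 47665 to 52774 in Ezh2 KO. Of the 2 CD8 T cell markers, Cd8a read 78.6 to 152 and Cd8b1 263 to 450 over the 6 arrays, and 0 passed. Of the 4 B cell markers with a probe set, 2 passed, in opposite directions. Ighm fell (log2 difference -0.79 ± 0.17, SD, n = 3 pairs; limma adjusted p = 0.0326), and Ms4a1 rose from 83.7, 30.3 and 63.5 to 210, 189 and 669 (2.46 ± 1.05, limma adjusted p = 0.0472). Cd79b was not called (0.56 ± 0.22), and Cd79a read 5.2 to 24.6 on all arrays. Their summed intensity, nearly all of it from Ighm, was 4405 to 5806 in Ezh2 KO against 7330 to 8616 in wild type. Both NK markers and both erythroid markers measured, and 4 of 7 myeloid markers, stayed under the low-signal limit (intensity 64.4) on all 6 arrays. The other 3 myeloid markers had signal and were tested, and 0 passed. Cd68 was higher in Ezh2 KO without overlap (0.55 ± 0.24, limma adjusted p = 0.0686). Csf1r was lower in 3 of 3 cultures with overlap (-0.34 ± 0.15, limma adjusted p = 0.0979). Adgre1 overlapped (0.11 ± 0.56) and was highest on the Th2 arrays, at 230 in wild type and 162 in Ezh2 KO. Whether these differences in T cell, B cell and myeloid markers had a part in the results below was not tested.

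Many respiratory chain genes share short promoter elements, and 3 of them were searched for in the RefSeq promoters (GRCm38.p6, from 250 bases before to 50 bases after each transcription start), on both strands. They were GCGCATGC, the core of the motif of nuclear respiratory factor 1 (NRF1), CCGGAAG, bound by ETS factors such as GABPA, and AAGATGGC, the YY1 motif. Promoters were found for 74 of the 90 genes, 79 promoters in all. GCGCATGC stood in 11 of the 79 promoters (13.9%), against 5.08% of the promoters of all tested genes and 2.71% of all promoters of the table. AAGATGGC stood in 10 (12.7%, against 4.43% and 2.75%), and CCGGAAG in 19 (24.1%, against 17.6% and 8.86%). At least 1 of the 3 motifs stood in 33 of the 79 promoters (41.8%), against 24.8% and 13.3%. A match is a description of the letters, and binding was not measured here.

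Windows of 30 bases around the NRF1 core are shown for 7 genes from complexes I to IV and ATP synthase, because the same letters recur in promoters of genes that lie far apart in the genome and whose genotype differences were unlike each other. Each is read 5′ to 3′ along the gene's strand, with the match in capitals. Positions are counted from the transcription start, whose first base is +1. In 4 of these 7 windows the core and its reverse complement overlap in a palindrome of 10 bases.
Uqcrc1, chr9:108936668-108936697, plus strand, match at +31 to +40: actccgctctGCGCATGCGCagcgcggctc
Ndufaf5, chr2:140170652-140170681, plus strand, match at +17 to +26: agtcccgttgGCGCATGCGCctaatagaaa
Ndufa6, chr15:82354356-82354385, minus strand, match at -83 to -76: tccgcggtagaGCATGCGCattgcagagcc
Uqcr11, chr10:80406807-80406836, minus strand, match at -4 to +4: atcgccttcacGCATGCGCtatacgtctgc
Sdhb, chr4:140961206-140961235, plus strand, match at -54 to -47: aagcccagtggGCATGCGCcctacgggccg
Cox6a1, chr5:115349101-115349130, minus strand, match at -162 to -153: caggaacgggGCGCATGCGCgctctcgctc
Atp5g2, chr15:102671070-102671099, minus strand, match at -42 to -33: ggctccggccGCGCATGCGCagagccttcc

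The YY1 motif sat at a like place in several genes, within the first 50 bases after the start and read in the direction of the gene. Windows of 5 of them, 4 from complex I and 1 from ATP synthase, show this.
Ndufa3, chr7:3617384-3617413, plus strand, match at +23 to +30: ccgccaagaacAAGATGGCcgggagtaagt
Ndufc1, chr3:51408915-51408944, minus strand, match at +23 to +30: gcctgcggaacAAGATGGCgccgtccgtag
Ndufs7, chr10:80249462-80249491, plus strand, match at +25 to +32: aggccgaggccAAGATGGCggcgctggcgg
Ndufs4, chr13:114388045-114388074, minus strand, match at +36 to +43: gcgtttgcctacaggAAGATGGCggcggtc
Atp5j2, chr5:145191500-145191529, minus strand, match at +24 to +31: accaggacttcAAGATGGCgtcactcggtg

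These genes were steady across the 6 arrays. Of the 86 tested genes, 74 (86.0%) stayed within a 1.5-fold range from the lowest to the highest array, against 43.4% of all tested genes, and 5 (5.81%) spanned 2-fold or more, against 30.9%. The 5 were Ndufa4, Ndufaf6, Ndufb1, Cox7a1 and Cox6b2. The median SD of log2 intensity over the 6 arrays was 0.119, against 0.258 for all tested genes and 0.131 for the 76 mitochondrial ribosomal protein genes. By complex the median SD was lowest for complex II (0.0882) and ATP synthase (0.110) and highest for the Ndufaf assembly factors (0.173). The median intensity of the 86 genes was 6812, against 580 for all tested genes, and the spread was not compared at matched brightness.

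**Figure D1:**
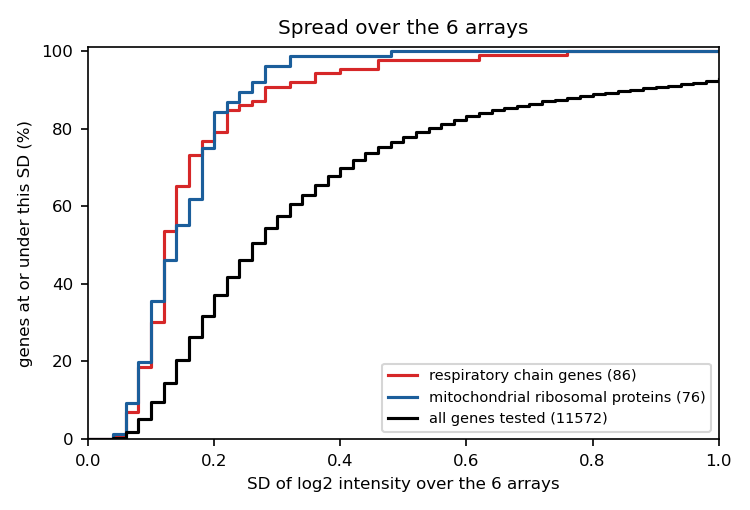
Cumulative share of genes (percent, vertical axis) at or under each SD of log2 intensity over the 6 arrays (horizontal axis, drawn up to 1), for the 86 respiratory chain genes, the 76 mitochondrial ribosomal protein genes and all 11572 tested genes. The curves of both mitochondrial sets rise to the left of the curve of all genes, with median SDs of 0.119, 0.131 and 0.258.

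Between the genotypes, 3 of the 86 genes passed the test, all lower in Ezh2 KO, and 0 passed in the other direction. That is 3.49%, against 16.3% of all tested genes (7.98% lower and 8.35% higher). The 3 were Ndufa4, the complex I assembly factor Ndufaf6 and the complex III core subunit Uqcrc1. The genotype term was tested with limma over the 3 culture pairs, with Benjamini-Hochberg adjustment over all 11572 tested genes. In these bulk samples, fewer cells of a type and less RNA per cell cannot be told apart.

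Ndufa4 encodes a small subunit that was first assigned to complex I and is now counted with complex IV. Its probe set (chromosome 6, gene at chr6:11900372-11907450) read 6453 unpolarized, 6698 in Th1 and 7410 in Th2 for wild type, against 4274, 3417 and 4281 for Ezh2 KO. The order unpolarized, Th1, Th2 is kept for all values below. All 3 Ezh2 KO arrays lay below all 3 wild type arrays. Ndufa4 fell by 1.72-fold in Ezh2 KO, a log2 difference of -0.79 ± 0.19 (SD over 3 culture pairs, n = 3; limma adjusted p = 0.0347). It was lower in 3 of 3 cultures, and it was the only one of the 86 genes to be at least 1.5-fold lower in the unpolarized pair.

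Ndufaf6 encodes a mitochondrial protein needed to assemble complex I. Its probe set (gene at chr4:11048991-11076237) read 835, 1091 and 878 in wild type against 621, 572 and 477 in Ezh2 KO. The groups did not overlap, and the wild type Th1 array was the highest. Ndufaf6 fell by 1.68-fold, a log2 difference of -0.75 ± 0.28 (SD, n = 3 pairs; limma adjusted p = 0.0489), lower in 3 of 3 cultures.

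Uqcrc1 encodes the first core subunit of complex III, part of the large domain that faces the matrix. Its probe set (gene at chr9:108936648-108949641) read 6007, 6655 and 6566 in wild type against 4689, 4432 and 4646 in Ezh2 KO. The groups did not overlap and the 3 Ezh2 KO arrays lay close together. Uqcrc1 fell by 1.40-fold, a log2 difference of -0.48 ± 0.12 (SD, n = 3 pairs; limma adjusted p = 0.0489), lower in 3 of 3 cultures. The promoter of Uqcrc1 held the 10-base NRF1 palindrome shown above, and that of Ndufa4 held none of the 3 motifs. Ndufaf6 was among the genes for which no promoter was found, so it was not searched.

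The 3 calls were marginal and depended on the settings. After centring each array on its median, 0 of the 86 genes passed, and the adjusted p from limma was 0.0585 for Ndufa4, 0.0859 for Ndufaf6 and 0.129 for Uqcrc1. Leaving out the unpolarized, the Th1 or the Th2 pair each left 0 of the 86 genes and 0 of all 11572 genes past the threshold, with limma adjusted p of 0.119 to 0.143 for Ndufa4, 0.113 to 0.182 for Ndufaf6 and 0.138 to 0.184 for Uqcrc1. The log2 differences in those fits were -0.88 to -0.69, -0.91 to -0.65 and -0.54 to -0.43. With a mean-variance trend in the limma prior, which lets bright genes have a smaller expected variance, 27 of the 86 passed (31.4%, against 34.4% of all tested genes), 24 lower (27.9%, against 19.1%) and 3 higher (3.49%, against 15.4%). Without the culture block 10 passed (11.6%, against 24.5%), 9 lower (10.5%, against 13.6%) and 1 higher (1.16%, against 10.9%).

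**Figure D2:**
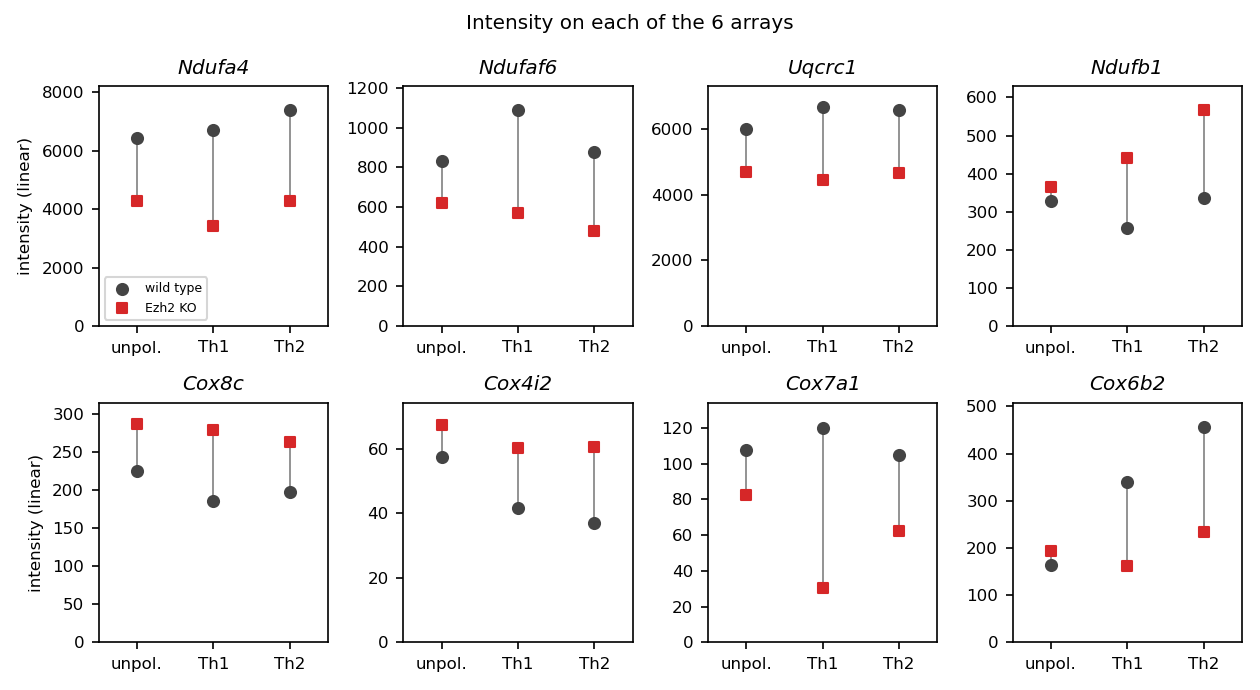
Linear intensity (vertical axis, from 0) on each of the 6 arrays for 8 genes, with the wild type (dark circles) and Ezh2 KO (red squares) arrays of each culture joined by a line. Ndufa4, Ndufaf6 and Uqcrc1 were called lower in Ezh2 KO, and the other 5 were not called.

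Over the 86 genes, the median log2 difference of Ezh2 KO minus wild type was -0.13, with 66 genes below 0 and 20 above, against a median of -0.07 over all tested genes. The quartiles of the 86 genes were -0.23 and -0.01, and the extremes were Cox7a1 (-1.04) and Ndufb1 (0.56). A mean change of at least 1.25-fold in either direction was seen for 12 of the 86 (14.0%), against 46.4% of all tested genes. A mean change of at least 1.5-fold was seen for 5 genes lower (5.81%, against 11.7%) and 0 higher (against 12.5%). At an unadjusted p under 0.05 there were 16 lower (18.6%, against 21.8%) and 3 higher (3.49%, against 16.9%). In these counts the share of changed genes was below that of all genes in both directions, and the differences lay mostly on the lower side.

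All 3 Ezh2 KO arrays lay below all 3 wild type arrays for 39 of the 86 genes (45.3%, against 27.5% of all tested genes). They lay above them for 4 (4.65%, against 20.1%). Among the 4 was Cox4i2, which reached the low-signal limit only on an Ezh2 KO array. The split into lower and higher genes depended on the scaling. After centring each array on its median, the counts were 18 below (20.9%, against 21.3% of all genes) and 4 above (4.65%, against 21.0%), and with quantile normalization 46 below (53.5%, against 26.1%) and 4 above (4.65%, against 20.9%). The excess of lower genes was thus seen under 2 of the 3 scalings, and the small number of higher genes under all 3.

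**Figure D3:**
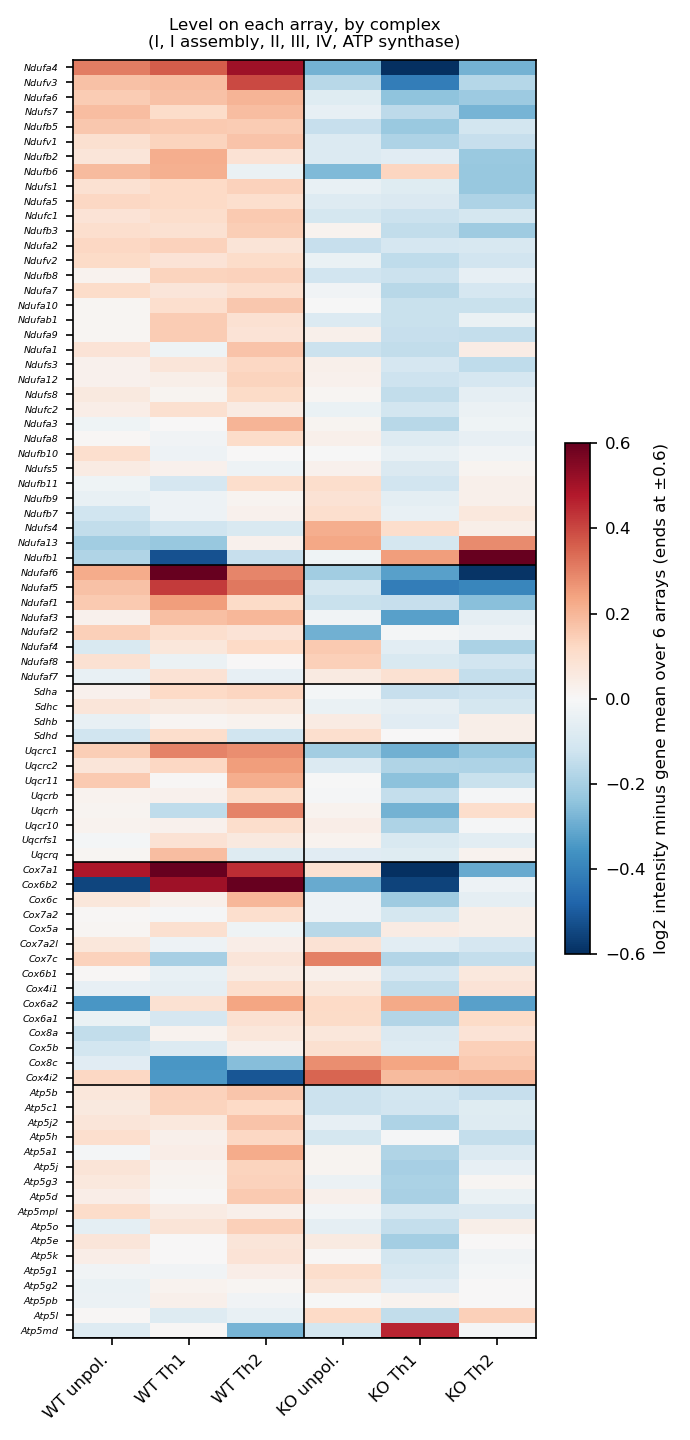
Each of the 86 tested genes (rows, grouped by complex) on each of the 6 arrays (columns), as log2 intensity minus that gene's mean over the 6 arrays, with colours ending at ±0.6. Most complex I rows are on the warm side in the 3 wild type columns and on the cool side in the 3 Ezh2 KO columns, while most complex IV rows show little difference.

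Complex I, the NADH dehydrogenase, had a median difference of -0.18 over its 34 tested subunits, with 28 below 0 and 6 above. For 19 of them (55.9%, against 27.5% of all tested genes) all Ezh2 KO arrays lay below all wild type arrays, and for Ndufs4 and Ndufb1 (5.88%, against 20.1%) all lay above. With median centring the lower count was 9 of 34 (26.5%, against 21.3% of all genes). Its median minus that of all genes was -0.10 as deposited, -0.10 with median centring and -0.16 with quantile normalization. Apart from Ndufa4, which was placed in this group by its symbol, 0 of the 34 passed the test.

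Ndufv3, a small accessory subunit of the arm that binds NADH, lay just outside the threshold. It read 15593, 15736 and 18168 in wild type against 12299, 10372 and 12275 in Ezh2 KO, with no overlap, a log2 difference of -0.50 ± 0.14 (SD, n = 3 pairs; limma adjusted p = 0.0506). Ndufa6, whose promoter window is shown above, read 5529, 5623 and 5722 in wild type against 4732, 4203 and 4279 in Ezh2 KO (-0.35 ± 0.11, limma adjusted p = 0.0788). Ndufv1, the core subunit that carries the flavin at the NADH site, read 4111, 4221 and 4330 against 3635, 3383 and 3492 (-0.27 ± 0.08, limma adjusted p = 0.107). In all of these the 2 groups of arrays were separate while the test was not passed.

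Ndufb1, an accessory subunit of the membrane arm, had the highest difference of the 86 genes. It read 327, 257 and 336 in wild type against 364, 440 and 568 in Ezh2 KO. All Ezh2 KO arrays lay above all wild type arrays, but the 3 pairs were unlike, with log2 differences of 0.15, 0.77 and 0.76. The mean difference was 0.56 ± 0.35 (SD, n = 3 pairs; limma adjusted p = 0.101). Ndufs4, an accessory subunit needed for a stable NADH-binding arm, read 2651, 2703 and 2758 in wild type against 3420, 3166 and 3009 in Ezh2 KO (0.24 ± 0.12, limma adjusted p = 0.152). The direction depended on the probe set. Dimmer ones for Ndufs4 gave 0.08 ± 0.09, -0.52 ± 0.09 and -0.54 ± 0.17.

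Ndufa3, a membrane arm subunit, read 14335, 14608 and 16831 in wild type against 14753, 12997 and 14344 in Ezh2 KO. The groups overlapped, with a log2 difference of -0.12 ± 0.14 (SD, n = 3 pairs). Another bright probe set for Ndufa3 gave -0.12 ± 0.05 without overlap, and a dim one gave 0.07 ± 0.40. The single-symbol probe set of Ndufb4 read 2.7 to 32.1 over the 6 arrays and was not tested. A probe set shared by Ndufb4 and its copies Ndufb4b and Ndufb4c was bright, at 4648, 4362 and 4322 in wild type against 3650, 3604 and 3255 in Ezh2 KO (-0.34 ± 0.07, SD, n = 3 pairs). It was left out because it cannot be given to 1 gene.

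The 8 Ndufaf assembly factors, which build complex I and are absent from the finished enzyme, had a median of -0.24, with 7 below 0. For 5 of them (62.5%, against 27.5% of all tested genes) all Ezh2 KO arrays lay below all wild type arrays, and for 4 with median centring (50%, against 21.3%). Ndufaf5, which modifies the subunit Ndufs7, read 436, 515 and 480 in wild type against 358, 289 and 294 in Ezh2 KO, with no overlap (-0.61 ± 0.29, limma adjusted p = 0.0708). Its window with the NRF1 palindrome is shown above. Ndufaf1, which acts in building the membrane arm, read 1323, 1411 and 1285 in wild type against 1081, 1077 and 998 in Ezh2 KO (-0.35 ± 0.05, limma adjusted p = 0.0661).

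The other end of the group was flat. Ndufaf8 read 2139, 1961 and 2010 in wild type against 2217, 1888 and 1857 in Ezh2 KO (-0.04 ± 0.08). Ndufaf7, a methyltransferase that modifies a core subunit, read 652, 713 and 648 against 698, 716 and 608 (0.01 ± 0.09). In both the groups overlapped.

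Complex II, succinate dehydrogenase, is also an enzyme of the tricarboxylic acid cycle, and 0 of its 4 subunits passed the test. Sdha, the flavoprotein that oxidizes succinate, read 5531, 5921 and 5946 in wild type against 5399, 4940 and 5000 in Ezh2 KO. The groups were separate but close (-0.18 ± 0.13, SD, n = 3 pairs). Dimmer probe sets for Sdha gave -0.47 ± 0.23 and -0.15 ± 0.28. Sdhb, the iron-sulfur subunit, read 9017, 9373 and 9429 against 9608, 8873 and 9514 (0.01 ± 0.09). Sdhd, a membrane anchor, read 3572, 4172 and 3570 against 4161, 3881 and 3975 (0.09 ± 0.17, with -0.11 ± 0.12 from its other, dimmer probe set). The arrays of Sdhb and Sdhd overlapped between genotypes.

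In complex III, all 8 tested Uqcr subunits had a mean difference below 0 with the deposited scaling, from Uqcrc1 (-0.48) to Uqcrq (-0.08). Their median was -0.11. The subunit Cyc1 was not among them and was read with the electron carriers below. For 4 of the 8 (50%, against 27.5% of all tested genes) all Ezh2 KO arrays lay below all wild type arrays. With median centring this held for 1 of the 8 (12.5%), a smaller share than the 21.3% of all genes. Uqcrc1 was the only one that passed the test. Uqcrb, a small subunit near the ubiquinone site, read 21405, 21467 and 22768 in wild type against 20970, 19065 and 20978 in Ezh2 KO (-0.11 ± 0.07). Uqcrq, another small subunit, read 4813, 5435 and 4528 against 4555, 4542 and 4843, with overlap (-0.08 ± 0.18). The median of the 8 complex III genes minus that of all genes was -0.03 as deposited, -0.03 with median centring and -0.09 with quantile normalization.

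Complex IV, cytochrome c oxidase, had a median difference of -0.01, with 9 of 15 tested subunits below 0 and 6 above. Of these 15, 0 passed the test. Ndufa4, which passed, was grouped by its symbol with complex I and is not among them. The median of the 15 was 0.04 with median centring and -0.02 with quantile normalization, so its sign depended on the scaling. For 2 of the 15 (13.3%, against 27.5% of all tested genes) all Ezh2 KO arrays lay below all wild type arrays. For Cox8c and Cox4i2 (13.3%, against 20.1%) all lay above. Cox4i2 was tested only because its Ezh2 KO unpolarized array (67.2) reached the low-signal limit. Complex IV has tissue-specific isoforms of several subunits, and these were the ones that spread most.

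The isoforms of most tissues were bright and flat between the genotypes. Cox4i1 read 19447, 19403 and 21594 in wild type against 21087, 18132 and 21266 in Ezh2 KO (0.00 ± 0.11, SD, n = 3 pairs). Cox6a1 read 32069, 30750 and 35186 against 35678, 29174 and 35761 (0.03 ± 0.12). Cox6b1 read 18265, 17619 and 18807 against 18541, 16951 and 18993 (-0.01 ± 0.04). In these 3 genes the arrays of the genotypes overlapped.

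Cox7a2, the isoform of most tissues, read 22740, 22518 and 24270 in wild type against 22217, 21087 and 23228 in Ezh2 KO (-0.06 ± 0.03), and Cox8a read 8976, 10092 and 10435 against 10449, 9372 and 10527 (0.04 ± 0.16). Cox7a2l read 7796, 7292 and 7659 against 7914, 7125 and 6946 (-0.05 ± 0.08). The groups overlapped in all 3.

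The isoforms known from muscle, testis or lung were dim. Cox7a1, the isoform of heart and skeletal muscle, read 108, 120 and 105 in wild type against 82.3, 30.3 and 62.6 in Ezh2 KO. All Ezh2 KO arrays lay below all wild type arrays, but the pairs ran from -0.39 to -1.98 on the log2 scale, and 2 of the 3 Ezh2 KO arrays were under the low-signal limit of 64.4. The mean difference of -1.04 ± 0.84 was not past the threshold (limma adjusted p = 0.131).

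Cox6b2, an isoform known from testis, read 163, 340 and 456 in wild type against 194, 163 and 234 in Ezh2 KO. The wild type Th1 and Th2 arrays stood above the other 4, and the unpolarized pair ran the other way, so the groups overlapped (-0.59 ± 0.73, limma adjusted p = 0.260). Cox8c, also known from testis, read 225, 185 and 198 against 286, 278 and 264, with all Ezh2 KO arrays above all wild type arrays. Its difference was 0.45 ± 0.12 (SD, n = 3 pairs; limma adjusted p = 0.0563), just outside the threshold.

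Cox4i2, the isoform known from lung, read 57.5, 41.5 and 36.9 in wild type against 67.2, 60.3 and 60.5 in Ezh2 KO (0.49 ± 0.25, limma adjusted p = 0.0835). Only the Ezh2 KO unpolarized array reached the low-signal limit, so Cox4i2 entered the test through the genotype in which it was higher. Cox6a2, the heart and muscle isoform, read 54.7, 74.3 and 82.2 against 75.6, 81.7 and 55.6, with overlap and no common direction (0.01 ± 0.53). Cox7b2 (1.7 to 10.5 over the 6 arrays), Cox8b (3.3 to 52.0) and Ndufa4l2, a relative of Ndufa4 (7.3 to 26.2), stayed under the low-signal limit on every array and were not tested.

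ATP synthase had a median difference of -0.13 over 17 tested subunits, with 12 below 0 and 5 above, and 0 passed the test. Atp5b, the catalytic beta subunit, read 17805, 18685 and 19068 in wild type against 15499, 15712 and 15426 in Ezh2 KO. The groups were separate and the pairs alike (-0.25 ± 0.05, SD, n = 3 pairs; limma adjusted p = 0.111). Atp5c1, the gamma subunit of the central stalk, read 19389, 20431 and 20240 against 17038, 17181 and 17683 (-0.21 ± 0.03, limma adjusted p = 0.143).

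The 3 genes for subunit c, whose copies form the ring that turns in the membrane, encode the same mature protein. Atp5g3 read 24453, 23706 and 25755 in wild type against 22842, 20528 and 23600 in Ezh2 KO, without overlap (-0.14 ± 0.06). Atp5g1 read 4212, 4207 and 4383 against 4593, 3995 and 4238 (0.00 ± 0.11), and Atp5g2 read 9386, 9794 and 9724 against 10189, 9213 and 9671 (0.01 ± 0.10, with -0.27 from its other probe set). Atp5md, a small subunit of the membrane part, read 3873, 4098 and 3369 against 3801, 5607 and 4068, where the Ezh2 KO Th1 array stood above the other 5 (0.23 ± 0.24, limma adjusted p = 0.267).

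**Figure D4:**
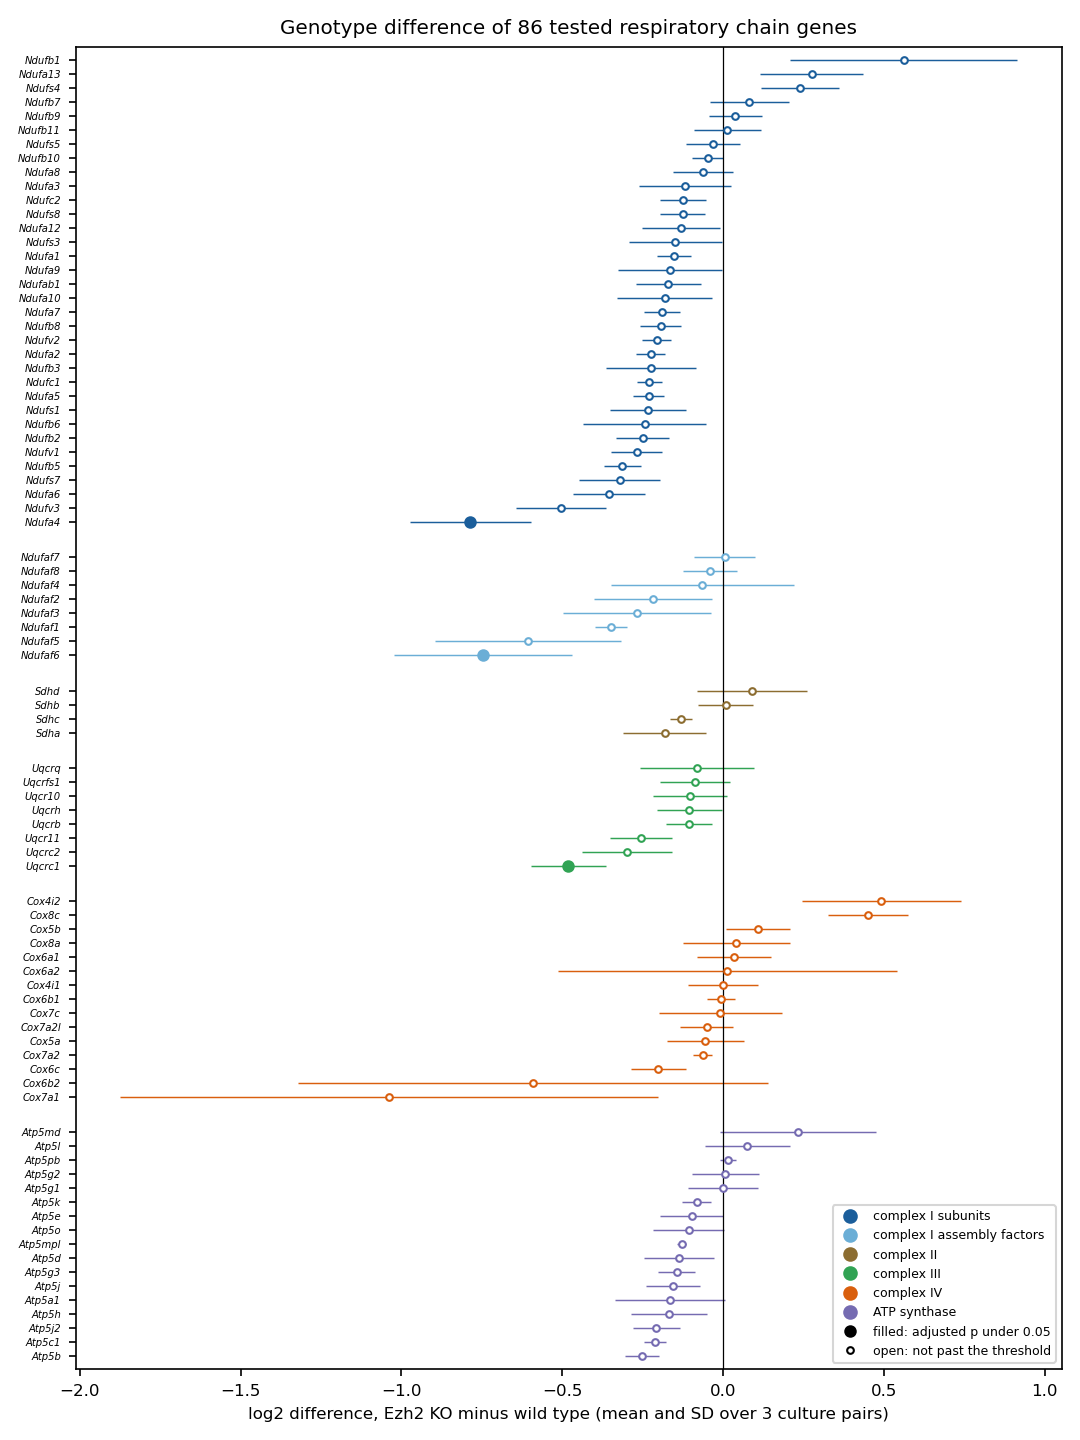
Log2 difference of Ezh2 KO minus wild type for the 86 tested genes (rows, grouped by complex), as the mean (point) and SD (bar) over the 3 culture pairs. Filled points are the 3 genes with a limma adjusted p under 0.05, and the complex IV isoforms Cox7a1, Cox6b2 and Cox6a2 have the widest bars.

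The genotype difference was set out by culture, where each value compares 1 array with 1 array and has no test. The median over the 86 genes was -0.03 in the unpolarized pair (50 below 0, 36 above), -0.17 in the Th1 pair (76 and 10) and -0.17 in the Th2 pair (67 and 19). The mean of the 3 medians was -0.13 ± 0.08 (SD, n = 3), while the median of all tested genes was -0.06 in each pair. The culture order was the same for complex I subunits (-0.10, -0.21 and -0.21). The unpolarized median was also the highest for glycolysis (-0.10, -0.28 and -0.27) and mitochondrial ribosomal proteins (-0.003, -0.14 and -0.08). So it was for the tricarboxylic acid cycle and pyruvate dehydrogenase (-0.19, -0.33 and -0.38). It was not for the electron carriers (0.19, 0.00 and 0.32) or the biogenesis factors (-0.07, 0.04 and -0.16). For complex IV the medians were 0.15, -0.06 and -0.02, with the unpolarized pair above 0. Whether the genotype difference differs between cultures was not tested, since each pair is a single pair of arrays.

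At least 1.5-fold within a pair, the counts of lower and higher genes were 1 and 0 in the unpolarized pair (against 14.6% and 12.9% of all tested genes), 7 and 2 in the Th1 pair (12.7% and 13.3%) and 5 and 2 in the Th2 pair (15.6% and 16.3%). Ndufa4 was among the lower genes in each of the 3 pairs. In the Th1 pair the lower genes were Cox7a1, Cox6b2, Ndufa4, Ndufaf6, Ndufaf5, Ndufv3 and Uqcrc1, and the higher ones were Ndufb1 and Cox8c. In the Th2 pair they were Cox6b2, Ndufaf6, Ndufa4, Cox7a1 and Ndufaf5, with Ndufb1 and Cox4i2 higher. Both Th2 arrays of Cox4i2 were under the low-signal limit, which it reached only on the Ezh2 KO unpolarized array. In all, 0 genes were at least 1.5-fold higher in one culture and 1.5-fold lower in another.

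**Figure D5:**
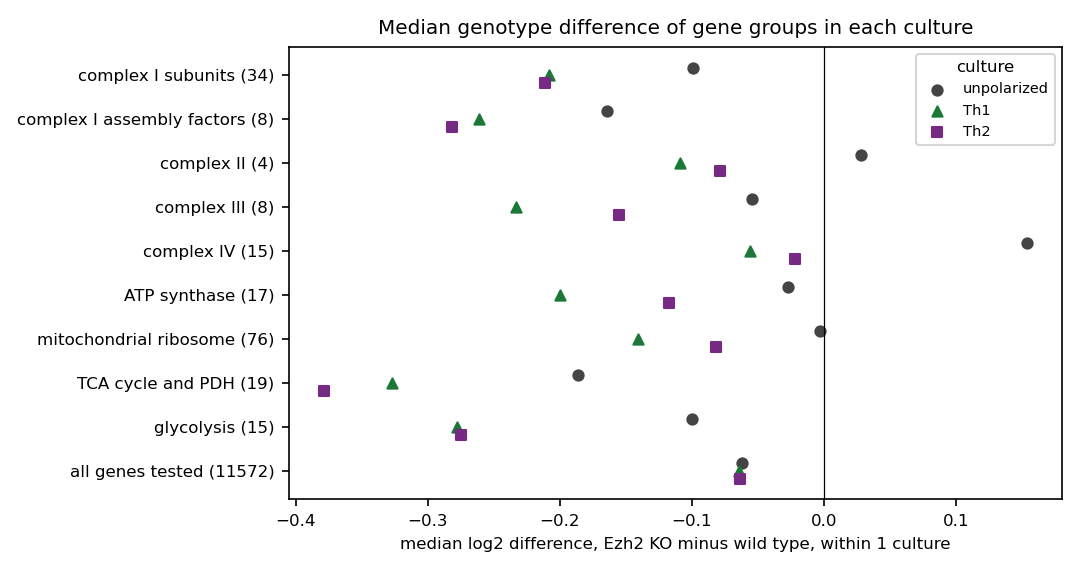
Median log2 difference of Ezh2 KO minus wild type within each culture (horizontal axis) for the 6 groups of respiratory chain genes, 3 comparison lists and all tested genes, with the number of tested genes in brackets. Each point compares 1 array with 1 array. The unpolarized points of the 6 groups lie to the right of their Th1 and Th2 points, and so do those of the 3 comparison lists. The 3 points of all genes coincide near -0.06.

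Between the cultures, 0 of the 86 genes passed the limma test for Th1 against Th2, Th1 against unpolarized or Th2 against unpolarized, and the background was 0 of all 11572 tested genes in each (0%). At an unadjusted p under 0.05 the 86 genes gave 1, 1 and 0, against 7.59%, 5.46% and 6.7% of all tested genes. With a mean-variance trend in the limma prior, all genes gave 16, 0 and 5 calls and the 86 genes gave 0 in each. The median log2 differences of the 86 genes were -0.04, -0.05 and 0.00, and those of all tested genes were 0.00, -0.01 and -0.01. These contrasts have 2 arrays on each side, 1 of each genotype.

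Uqcrh, the acidic hinge subunit of complex III, was the gene below 0.05 in Th1 against Th2. It read 14181, 12628 and 17232 in wild type against 14241, 11551 and 15087 in Ezh2 KO, so both Th1 arrays were the lowest of their genotype and both Th2 arrays the highest. The fitted log2 difference of Th1 minus Th2 was -0.42 (unadjusted p = 0.021, limma adjusted p = 0.643). Cox7c, a small subunit of complex IV, was the gene below 0.05 in Th1 against unpolarized (-0.41, unadjusted p = 0.045, limma adjusted p = 0.857). Its single-symbol probe set read 364, 288 and 348 in wild type against 408, 292 and 300 in Ezh2 KO. Uqcrh was picked after its values were seen.

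The widest culture differences were not past the test. Cox6b2 had a Th2 minus unpolarized difference of 1.48 in wild type against 0.27 in Ezh2 KO, with a fitted value of 0.88 (limma adjusted p = 0.808), and a fitted Th1 minus Th2 difference of -0.47. Cox7a1 had Th1 minus unpolarized differences of 0.15 in wild type and -1.44 in Ezh2 KO (fitted -0.64, limma adjusted p = 0.860). Atp5md had a fitted Th1 minus Th2 difference of 0.37 (0.28 in wild type against 0.46 in Ezh2 KO). Ndufb6, a complex I membrane arm subunit, read 5682, 5783 and 4846 in wild type against 4142, 5439 and 4257 in Ezh2 KO, a fitted Th1 minus Th2 difference of 0.30. Cox4i2 and Ndufb1 had fitted Th2 minus unpolarized differences of -0.40 and 0.34.

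The genes around the chain were read from lists of fixed membership. Of 7 electron carriers and feeders outside the complexes, 1 passed the genotype test, lower in Ezh2 KO (14.3%, near the 16.3% of all tested genes). Dhodh, which feeds electrons from pyrimidine synthesis into ubiquinone, read 513, 608 and 465 in wild type against 362, 448 and 328 in Ezh2 KO, and fell by 0.48 ± 0.04 on the log2 scale (SD, n = 3 pairs; limma adjusted p = 0.0406). Every culture's Ezh2 KO array was lower than its wild type array. Gpd2 (0.50 ± 0.19), Etfb (0.49 ± 0.18) and cytochrome c itself, Cycs (0.36 ± 0.19), had differences on the other side and were not called (limma adjusted p = 0.0629, 0.0617 and 0.108).

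Of 34 tested assembly factors outside the Ndufaf genes, 2 passed, both lower (5.88%, against 7.98% of all tested genes lower). Sdhaf1, a complex II factor that helps to insert the iron-sulfur clusters of Sdhb, read 759, 818 and 845 in wild type against 457, 365 and 399 in Ezh2 KO, and fell by 0.99 ± 0.23 (limma adjusted p = 0.0309). Sdhaf3, another complex II factor, read 274, 353 and 284 against 209, 259 and 192, and fell by 0.47 ± 0.09 (limma adjusted p = 0.0466). Sco1, a copper chaperone of complex IV, read 206, 254 and 112 in wild type against 263, 360 and 324 in Ezh2 KO and was not called (0.80 ± 0.64, limma adjusted p = 0.135). Over the 34 genes the median was -0.01, with 17 below 0 and 17 above.

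Of 19 tested genes of the tricarboxylic acid cycle and pyruvate dehydrogenase, which supply NADH and succinate, 3 passed, all lower. That is 15.8%, against 7.98% of all tested genes lower and 16.3% in either direction. The median was -0.33 with 19 of 19 below 0. Pdha1, the catalytic alpha subunit of pyruvate dehydrogenase, read 5781, 5133 and 6230 in wild type against 3583, 3248 and 2990 in Ezh2 KO, and fell by 0.80 ± 0.22 (limma adjusted p = 0.0374). Pdk1 and Pdk3, kinases that inhibit that enzyme, fell by 0.75 ± 0.21 and 0.51 ± 0.04 (limma adjusted p = 0.0392 and 0.0390).

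Of 19 tested mitochondrial biogenesis factors, 3 passed, all lower (15.8%, against 7.98% of all tested genes lower and 16.3% in either direction). Polg2, an accessory subunit of the mitochondrial DNA polymerase, read 621, 546 and 632 in wild type against 411, 327 and 359 in Ezh2 KO, and fell by 0.72 ± 0.11 (limma adjusted p = 0.0310). Polrmt, the mitochondrial RNA polymerase, fell by 0.55 ± 0.17 (limma adjusted p = 0.0488). Tfam, which packs mitochondrial DNA and starts its transcription, read 2885, 3043 and 2629 against 2239, 2279 and 1878, and fell by 0.42 ± 0.06 (limma adjusted p = 0.0495). The lowest mean difference of the list was that of Esrrg, which was dim at 8.1 to 70.2 over the 6 arrays and not called (limma adjusted p = 0.443).

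Of 12 tested regulators of the chain, 0 passed, with a median of -0.23. The largest difference among them was that of Opa1, which fuses inner membranes and shapes cristae, at 1671, 1725 and 1550 in wild type against 1328, 1398 and 1152 in Ezh2 KO (-0.35 ± 0.07, limma adjusted p = 0.0666). Of the 76 mitochondrial ribosomal protein genes, 0 passed, with a median of -0.07, like that of all tested genes, and Mrps27 the lowest (-0.64 ± 0.53, limma adjusted p = 0.145). Of 15 tested glycolytic genes, 2 passed, both lower, with a median of -0.18. That is 13.3%, against 7.98% of all tested genes lower and 16.3% in either direction. Aldoc, an aldolase, read 9029, 9364 and 10265 in wild type against 3590, 2479 and 2517 in Ezh2 KO, and fell by 1.76 ± 0.37 (limma adjusted p = 0.0260). Pfkm, a phosphofructokinase, fell by 0.99 ± 0.33 (limma adjusted p = 0.0405). The list of subunits encoded in mitochondrial DNA matched 0 single-symbol probe sets, so they were not analysed here.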

How the data were processed

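Per the labels' protocols, total RNA was labelled by 3′ in vitro transcription for 6 Affymetrix arrays. The authors deposited 1 linear intensity for each probe set on each array. Affymetrix Expression Console is named without a version, per the submitters' processing notes. How probes were summarized was not given in the sources used here. Every array's deposited intensities had a mean of 500.003 once 2% was trimmed from both ends, so they had been scaled.

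Of 45101 probe sets (64 controls), the platform annotation gave 1 symbol for 34945, several for 932 and none for 9160. RefSeq tables of GRCm38.p6 held 34741 of those with 1 symbol and gave gene positions and promoters. No build is named for the arrays themselves.

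Values were raised to the 20th percentile (intensity 11.33, log2 3.50) and taken to log2. Genes whose highest value was under the median of all values, the low-signal limit (64.43), were not tested. With limma 3.58.1 in R 4.3.3, culture and genotype were fitted additively to all 6 arrays (2 residual degrees of freedom, eBayes prior 1.66), adjusted by Benjamini-Hochberg over 11572 genes, threshold 0.05. The number of arrays limits the precision.

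The genes, lists and tests were chosen with earlier results of these data known. Genes were named by rule: those past the genotype threshold; in each complex the highest level and the highest and lowest difference; the 2 highest and 2 lowest of each culture contrast; the isoform families; those not tested; and up to 3 of each list. Ndufv3, Ndufa6, Ndufv1, Ndufs4, Ndufaf5, Ndufaf1, Atp5c1, Uqcrh, Cycs, Sdhaf3, Tfam and those named only by a count were added after their values were seen. The alternatives were 2 other scalings, 2 filters, 2 floors, the mean of all probe sets, a prior with trend, no culture block and leaving out arrays.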

Additional observations from a re-analysis of the deposited data

How the results depend on the processing

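The count of respiratory chain genes called between the genotypes (3) depended on the processing, and the cause was not tested. It was 0 with median centring and 0 with no filter on low values, where 0 of 18193 genes were called. It was 1 with no floor, 5 with quantile normalization and 5 with a floor at the 40th percentile. The share of all genes called is not given here for the settings of that last sentence, so those counts are not read as a result about these genes. A filter at the 60th percentile gave 11 (9 lower and 2 higher), with 3228 calls among all genes. With no culture block it was 10, with 2838 calls among all 11572 tested genes (24.5%). With a mean-variance trend in the prior it was 27, with 3983 calls among all 11572 (34.4%). The main fit made 1890 calls among all genes (16.3%), so the calls among all genes also rose in these fits. Leaving out each culture pair in turn gave 0 to 0. Median centring also moved the calls among all genes from 966 higher and 924 lower to 863 and 411.

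The median log2 difference of the 86 genes between the genotypes lay between -0.15 and -0.08 over the other settings and between -0.16 and -0.11 without 1 pair. The median of Th1 against Th2 (-0.04) was -0.0693 with median centring, -0.0220 with quantile normalization, -0.0222 with the mean of all probe sets, and -0.0875 to -0.00819 without 1 array. Under every alternative run, 0 of the genes were called between cultures. Alternative values of named genes were set against an error, the SD over pairs for the genotype and the limma standard error for the culture contrasts. A called gene counted as the same if it kept its sign and the threshold. Any other gene did if it stayed uncalled and moved by less than its error. Over 497 alternative values, 438 were the same, 32 moved further, 19 lost the threshold and 8 gained it. Among the 497, 24 values of genes that were not called changed sign, and 0 of called genes did. Signal over background limits the dim isoforms, and 3 pairs limit the rest. Probe sets of 48 genes could be compared, and those of 33 had 1 sign throughout.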

Other observations

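Probe sets given to more than 1 symbol were left out of all counts above, and some of them were bright. A probe set shared by Ndufs6 and Ndufs6b, where Ndufs6 is a zinc-binding accessory subunit of complex I, read 6696 unpolarized, 6754 in Th1 and 6334 in Th2 for wild type, against 4886, 5015 and 4880 for Ezh2 KO, a log2 difference of -0.42 ± 0.04 (SD, n = 3 pairs). The groups did not overlap. A probe set shared by Ndufa11 and Ndufa11b, a membrane arm subunit, read 3626, 3627 and 3288 against 3538, 3705 and 3826, with overlap (0.07 ± 0.13). A probe set shared by Ndufs5 and its pseudogene read 4494, 4208 and 4199 against 4287, 3892 and 4007 (-0.08 ± 0.03).

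The genotype difference was also read by promoter motif, as a description. The median was -0.06 over the 11 tested genes with the NRF1 core and -0.14 over the 60 without it. It was -0.16 over the 10 with the YY1 motif and -0.13 over the 61 without. With the ETS motif it was -0.08 over 19 genes, and -0.16 over the 52 without. Genes with the NRF1 core ran from Ndufaf5 (-0.61) to Atp5l (0.08).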
